A study of Mus musculus with 24 samples.

Results

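CAR, the constitutive androstane receptor, is a nuclear receptor encoded by Nr1i3. The livers of 6 XX mice that lack it (CAR-/-) were compared with the livers of 6 XX wild-type mice (WT), all labelled C57 BL/6J and 16 weeks old, across the 22140 genes and unnamed transcripts of the deposited table of array values. These 12 samples were chosen by their titles out of 24, and the other 12 are XY mice of the same genotypes and age, 6 in each group, which entered the same fit, where they share the estimate of the spread, and are described only to show where the female difference was or was not the same. RNA of 1 liver was labelled with Cy3 and hybridized to 1 Agilent array. All mice were on a standard diet, and the labels name no drug treatment. The labels say that C57 BL/6J mice were bought from a vendor, whereas the methods of the study say that the knockout line had been backcrossed to that strain and came from another laboratory. The absence of CAR, the DNA that came along with the deleted gene and the origin of the colony therefore cannot be told apart in any comparison of the genotypes. For this reason the genes of chromosome 1 from 163 to 181 Mb (mm9), which flank Nr1i3, were kept apart from the rest of the genome.

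In hepatocytes CAR is held in the cytoplasm and moves to the nucleus when drugs or other foreign compounds, or their signals, reach the cell. It then binds DNA together with the retinoid X receptor and raises the transcription of enzymes and transporters that clear such compounds, above all cytochromes P450 of the Cyp2b and Cyp2c families. It is also known for effects on glucose, lipid, bile acid and steroid metabolism, and several of its liver target genes differ between male and female mice.

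Values below are on the log2 scale of the table, which had been quantile normalized, so that a difference of 1 is a doubling of the array signal. A gene is represented by its probe with the highest mean signal. It was called changed when the adjusted p was below 0.05 and the fold change above 1.5. Levels of different probes cannot be set against each other, so only differences between mice are given. The female arrays lay on 4 slides. Slides 1 to 3 held both genotypes, and slide 4, scanned on another day, held WT females 2 and 5 and no CAR-/- array. Between 30499 and 31919 probes were well above background in WT females and between 30114 and 34656 in CAR-/- females, with CAR-/- females 1 and 5 at the top. The lowest correlation between 2 arrays of a female group was 0.99 and no probe was saturated on any array. Each array is a different mouse, so p-values measure the spread between these mice, and their number limits the precision.

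The array design carries a pair of Nr1i3 probes that passed into the table, both on the plus strand of chromosome 1 (mm9). They are shown because they check the genotype, and every base of both is part of the probe.
Nr1i3 probe at chr1:173148765-173148824: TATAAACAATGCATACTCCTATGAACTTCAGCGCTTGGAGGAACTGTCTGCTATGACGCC
Nr1i3 probe at chr1:173147776-173147835: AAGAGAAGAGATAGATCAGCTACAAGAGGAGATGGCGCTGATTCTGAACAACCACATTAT
On the first of these the log2 signal of Nr1i3 had a lowest, median and highest value of 12.46, 13.04 and 13.44 in WT and of 9.31, 9.75 and 10.01 in CAR-/- livers. The groups did not overlap, and the 6 CAR-/- livers lay within 0.70 of each other. Nr1i3 was 9.75-fold lower in CAR-/- livers (log2 difference -3.29 ± 0.15 SE, adjusted p = 1.4e-13), and the second probe gave -3.25. The signal of the CAR-/- livers remained well above background on all 6 arrays. Which exons the deletion removed is not given in the sources used here, so that the remaining signal cannot be assigned to a transcript.

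Across all genes, 496 were higher and 115 lower in CAR-/- females, which is 2.76% of the 22140 tested. The median difference over all genes was -0.02. Outside the window 473 genes were higher (2.16% of 21948) and 100 lower (0.456%), 573 in all (2.61%). Without regard to p, the 6 CAR-/- livers all lay beyond the 6 WT livers for 716 genes (3.23%), and 353 of the higher and 56 of the lower called genes were among these. At an unadjusted p below 0.05 and the same fold change, 582 genes were higher and 196 lower. Of all called genes 126 stood on the gene lists described below, which follow drug, steroid and lipid metabolism, immune pathways and the markers of cell types.

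Inside the window, 23 of 192 genes were higher and 15 lower in CAR-/- females. The share called was 19.8% there, 7.59 times the share in the rest of the genome. Since a knockout line can carry other DNA around the deleted gene, these differences are described first and are not counted with the rest of the genome. Within 3 Mb bins of the window the share called was 29.0% of 69 genes from 172 to 175 Mb, which holds Nr1i3 itself, and 27.3% of 33 genes from 175 to 178 Mb. Beyond the upper edge, none of the 47, 23 and 15 genes of the next 3 bins was called, whereas at the lower edge called genes lay on both sides.

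**Figure D1:**
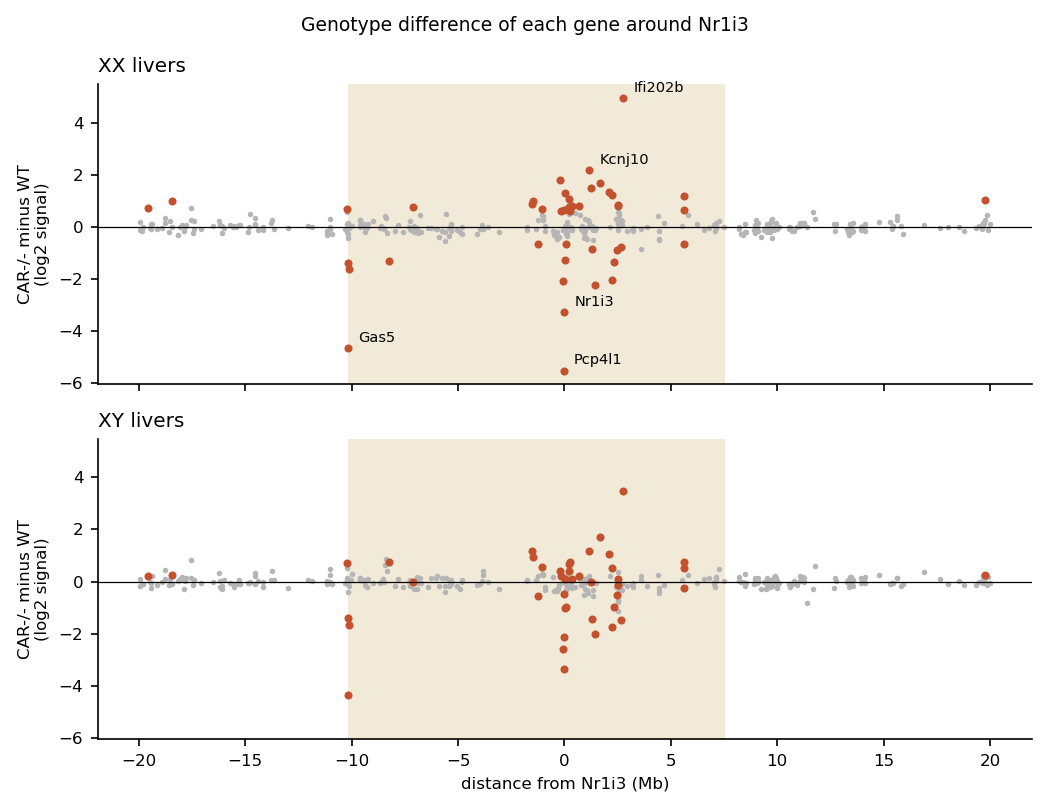
Each point is a gene of chromosome 1, placed by its distance from Nr1i3 in Mb, with the difference between CAR-/- and WT livers in log2 signal on the vertical axis, XX livers above and XY livers below. Red points were called in XX livers and grey ones were not, and the shading runs from the first to the last gene of the window. The called genes of XX livers crowd around Nr1i3 and just beyond it, and most lie on the same side of 0 in XY livers.

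The largest rise in the window was that of Ifi202b, a member of the interferon-inducible Ifi200 family that encodes cytosolic DNA-binding proteins. Its probe was not well above background on any WT array, and the log2 signal of Ifi202b had a lowest, median and highest value of 4.29, 4.56 and 4.67 in WT and of 9.07, 9.54 and 9.62 in CAR-/- livers. The groups lay far apart. The rise was at least 25.2-fold, with the WT level set to the dimmest signal that its own array still measured above background (adjusted p = 8.1e-20). In the same family Aim2, the sensor of the DNA inflammasome, and Ifi207 rose by 1.2 and 0.84, whereas Ifi206, Ifi208 and Ifi211 were lower, with differences of -2.02, -0.90 and -0.77, as was Ifi213. Of 12 measured genes of this family 3 were thus higher and 4 lower. Ifi213 was not well above background in any CAR-/- female, and its level was at least 2.18-fold lower there.

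Pcp4l1, the neighbour of Nr1i3, which encodes a small protein with a calmodulin-binding motif, had the largest decrease in the window. On the log2 scale its lowest, median and highest values were 10.51, 11.90 and 12.19 in WT and 5.87, 6.13 and 6.22 in CAR-/- livers. The difference of -5.52 ± 0.22 (SE, adjusted p = 3.7e-15) was larger than that of Nr1i3. Dusp23, a phosphatase, was 4.65-fold lower in CAR-/- livers (log2 difference -2.22 ± 0.11 SE, adjusted p = 3.7e-13), and its groups did not overlap either. Cfap126, a protein of motile cilia, differed by -2.08, Cenpl, a centromere protein, by -1.60, and Adamts4, a secreted protease, was at least 1.85-fold lower, with no CAR-/- array well above background.

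Kcnj10, an inwardly rectifying potassium channel, was 4.53-fold higher in CAR-/- livers (log2 difference 2.18 ± 0.19 SE, adjusted p = 2.8e-08). Its lowest, median and highest log2 signals were 6.70, 7.10 and 7.35 in WT and 8.79, 9.21 and 9.75 in CAR-/- livers, without overlap. Apcs, serum amyloid P component of the pentraxin family, rose by 1.68 and Ackr1, a chemokine receptor that does not signal through G proteins, by 1.32. Rgs4 and Rgs5, which shorten G protein signals, rose by 0.98 and 0.86, and Usf1, a transcription factor of lipid genes, by 0.76. A second set of window genes encodes receptors and adaptors of leukocytes. Fcgr4, Fcgr3 and Fcer1g of the Fc receptors, Ly9, Cd84 and Slamf9 of the SLAM family and Arhgap30 rose by 1.79, 0.61, 1.31, 0.80, 0.81, 1.49 and 1.05. The leukocyte genes of other chromosomes rose in the same livers, and whether these window genes moved with the cells or with the flanking DNA was not tested.

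In males 193 of all genes were called (0.872%), and 25 of the 192 in the window (13%). Of the 38 window genes called in females, 20 were also called in males with the same sign and 0 with the opposite sign, and 33 of 38 had the same sign whatever the p. Among those shared were Ifi202b, Kcnj10, Apcs, Ackr1, Rgs4, Rgs5, Usf1, Dusp23, Cfap126, Cenpl, Pcp4l1 and Nr1i3. None of the 7 leukocyte genes above was among them, and Fcgr4, Fcer1g and Slamf9 differed by 0.42, 0.11 and -0.03 in males. Outside the window 33 of the 573 called genes were called in males with the same sign and 2 with the opposite sign, C6 and Gm2568.

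Gas5, which lies just below 163 Mb, is outside the window by position and counted with the rest of the genome. It is a host gene of small nucleolar RNAs and had the largest decrease there, and the log2 signal of Gas5 had a lowest, median and highest value of 11.62, 11.78 and 12 in WT and of 6.86, 7.12 and 7.45 in CAR-/- livers. The groups were more than 4 log2 units apart. Its difference was -4.64 ± 0.10 (SE) in females and -4.36 in males, but its 3 probes disagreed and ranged from -4.64 to 0.00. Cenpl at 163.01 Mb is the nearest called gene inside, whereas at the upper edge neither the 4 nearest genes inside nor the 4 nearest outside were called. On another chromosome, Nnt, the mitochondrial transhydrogenase, was higher by 1.38 in females and 1.65 in males, with WT and CAR-/- female means of 11.95 and 13.34. It was picked after its values were seen, because C57BL/6J mice of the original colony are known to carry a deletion in it.

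Among the genes of drug metabolism, Cyp2c transcripts were lower in CAR-/- females. Cyp2c enzymes hydroxylate fatty acids, steroids and many drugs, and their genes lie side by side on chromosome 19. Of 11 measured genes of the family 4 were lower and none was higher, with a median of -0.58, against 0.456% lower among all genes outside the window. Of the 34 measured genes on a list of known CAR targets 5 were lower and none higher, with a median of -0.26. This list shares members with the Cyp2c family, Cyp2c54 and Cyp2c50 among those called, so that both counts are not separate.

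For Cyp2c54, the lowest, median and highest log2 signals were 13.94, 15.28 and 15.70 in WT and 10.86, 11.39 and 12.07 in CAR-/- livers. For Cyp2c50, the lowest, median and highest log2 signals were 14.58, 15.65 and 15.96 in WT and 11.72, 12.12 and 12.85 in CAR-/- livers. For Cyp2c37, the lowest, median and highest log2 signals were 13.70, 14.62 and 14.81 in WT and 11.11, 11.73 and 12.51 in CAR-/- livers. None of these groups overlapped, although WT female 3 lay below the other WT livers in each of the 3 genes, at 13.94, 14.58 and 13.70. Cyp2c54 was 12.6-fold lower in CAR-/- livers (log2 difference -3.66 ± 0.22 SE, adjusted p = 2.8e-11). Cyp2c50 was 9.68-fold lower in CAR-/- livers (log2 difference -3.28 ± 0.18 SE, adjusted p = 8.5e-12). Cyp2c37 was 6.60-fold lower in CAR-/- livers (log2 difference -2.72 ± 0.20 SE, adjusted p = 1.4e-09). The 3 probes of Cyp2c54 ranged from -4.10 to -1.51, all in the same direction. The probes that stood for these genes share runs of at most 11 bases with those of the other Cyp2c genes. They were not compared with the transcripts of those genes, so whether each probe measures its own gene alone was not tested. Cyp2c39 was also lower, by a difference of -0.88, with overlapping groups. Cyp2c29, a major hepatic member, lay just under the fold change minimum at -0.58 (adjusted p = 8.7e-04), and Cyp2c38, Cyp2c67, Cyp2c68 and Cyp2c70 gave -0.66, -0.39, -0.50 and -0.15, none of them called.

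**Figure D2:**
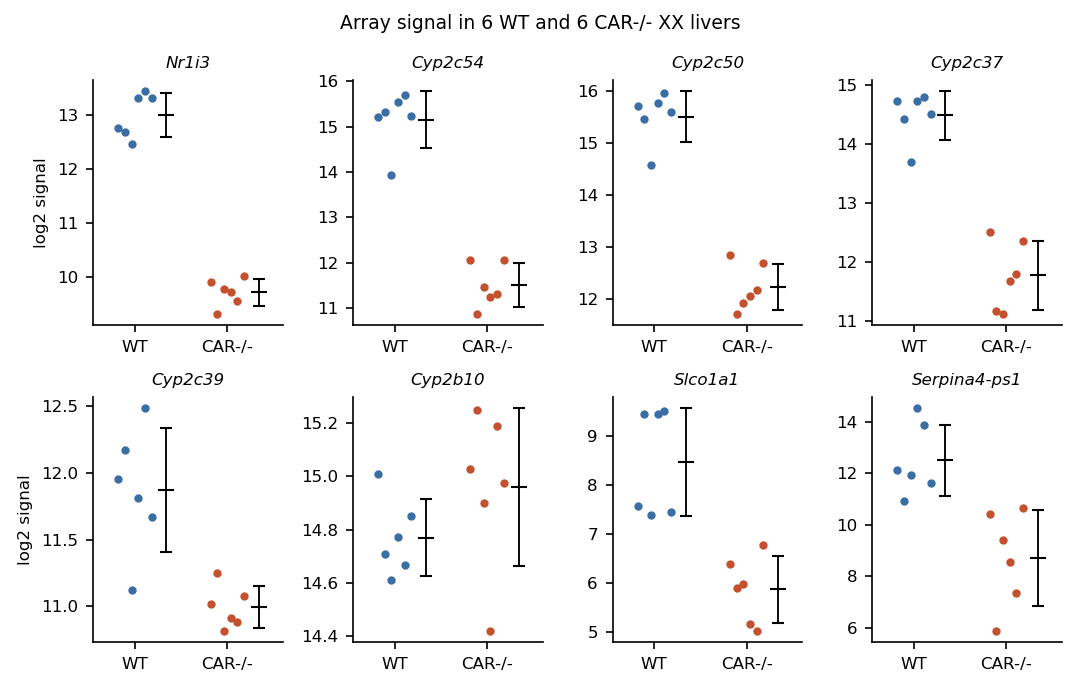
Log2 array signal of 8 genes in each of the 6 WT (blue) and 6 CAR-/- (red) XX livers, with a horizontal mark and bars for the mean and SD beside each group. The vertical axes differ between genes and do not start at 0. Nr1i3, Cyp2c54, Cyp2c50, Cyp2c37, Slco1a1 and Serpina4-ps1 separate the genotypes completely, Cyp2c39 does so incompletely, and Cyp2b10 does not.

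The 250 bases upstream of Cyp2c50 and Cyp2c37 are printed because both genes were much lower in CAR-/- livers and Cyp2c54 has no entry in the table used. They are RefSeq sequences of the build GRCm38.p6, read on the plus strand, and the capitals mark the longest run that both share.
Cyp2c50 at chr19:40089429-40089678: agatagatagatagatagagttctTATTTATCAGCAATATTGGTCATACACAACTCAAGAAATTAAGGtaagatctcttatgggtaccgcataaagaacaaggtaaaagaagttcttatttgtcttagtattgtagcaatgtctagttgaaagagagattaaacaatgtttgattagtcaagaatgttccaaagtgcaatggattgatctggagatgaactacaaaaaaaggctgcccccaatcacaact
Cyp2c37 at chr19:39992174-39992423: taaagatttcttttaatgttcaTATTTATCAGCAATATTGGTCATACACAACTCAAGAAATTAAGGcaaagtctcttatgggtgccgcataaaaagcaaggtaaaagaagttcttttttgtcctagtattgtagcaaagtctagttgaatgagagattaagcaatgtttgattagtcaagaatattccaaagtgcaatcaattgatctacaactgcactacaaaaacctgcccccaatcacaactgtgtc
The shared run is 44 bases long, and 215 of 255 aligned columns are identical (84.3%). The half-site AGGTCA of nuclear receptors, searched on both strands, is in neither of these stretches, and the variant AGTTCA is in Cyp2c50 at 1 place and not in Cyp2c37. AGGTCA is in 14.0% and AGTTCA in 11.8% of the 32851 windows of the 250 bases before transcript starts in the same table. No match says only that these letters are not in these stretches.

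Cyp2b10, the gene most often used as a marker of CAR activation, was not called. Its lowest, median and highest log2 signals were 14.61, 14.74 and 15.01 in WT and 14.42, 15 and 15.25 in CAR-/- females, which overlap. The difference was 0.19 ± 0.47 (SE, adjusted p = 0.87). The 6 CAR-/- males, which share the estimate of the spread in the fit, ranged from 4.70 to 8.56. None of the 6 measured Cyp2a and Cyp2b genes was called, and Cyp3a44 was the single one of 8 Cyp3a genes, at -0.72. The call of Cyp3a44 was lost when any of WT females 1, 4 or 6 or CAR-/- females 1, 2, 4 or 5 was left out. None of 13 Cyp4 genes, 14 sulfotransferase genes or 24 glutathione transferase genes was called, with medians of -0.28, 0.06 and -0.17. With 1 mouse left out, 1 sulfotransferase was called without WT female 3 or CAR-/- females 1 or 3, and 1 glutathione transferase and 1 Cyp2a or Cyp2b gene without CAR-/- female 2.

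Among glucuronosyltransferases Ugt2b35 and Ugt2b37 were lower, with differences of -0.83 and -0.60, and Ugt1a10 was higher by 2.16, out of 15 genes. The neighbouring second probe of Ugt1a10 gave 0.17, and CAR-/- female 3 lay at 8.30, inside the WT range, so that this rise rests on 1 probe and 5 mice. The call of Ugt1a10 was lost when any of WT female 2 or CAR-/- females 1, 2 or 6 was left out. The call of Ugt2b35 was lost when any of WT females 4, 5 or 6 or CAR-/- females 1, 3, 4 or 6 was left out. The count of lower glucuronosyltransferases was 0 without WT females 4, 5 or 6 or CAR-/- females 1 or 4, each left out alone. Of 17 carboxylesterases and related hydrolases 3 were lower: Nceh1, which cleaves cholesterol esters, at -1.22, Ces2a at -0.60 and Ces3b at -0.59. The count fell to 1 without WT female 2, without WT female 5 and without CAR-/- female 2. The CAR target list dropped from 5 to 3 without WT female 5, without CAR-/- female 3 and without CAR-/- female 4, while Cyp2c54, Cyp2c50 and Cyp2c37 were called in every refit. Alas1, the first enzyme of heme synthesis, and Abcc3, an efflux pump, gave -1.02 and -0.72 without passing the test. Of 33 nuclear receptor and cofactor genes other than Nr1i3, among them Nr1i2 (PXR, -0.05), Rxra (0.15) and Hnf4a (-0.02), none was called, although 1 was without WT female 3 or CAR-/- female 6.

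Several genes that male mouse livers are known to express more strongly than female ones were lower in CAR-/- females. Of 34 measured genes on the list of male-biased genes 5 were lower and 1 was higher, with a median of -0.22. The count of higher genes was 2 without WT females 1 or 5 or CAR-/- females 4 or 5, each left out alone. For Serpina4-ps1, a serine protease inhibitor pseudogene, the lowest, median and highest log2 signals were 10.92, 12.04 and 14.52 in WT and 5.85, 8.98 and 10.64 in CAR-/- livers. For Slco1a1, an uptake carrier of organic anions, the lowest, median and highest log2 signals were 7.39, 8.50 and 9.50 in WT and 5.02, 5.94 and 6.77 in CAR-/- livers. For Hsd3b5, a steroid dehydrogenase, the lowest, median and highest log2 signals were 6.10, 7.95 and 8.72 in WT and 5.0, 5.21 and 5.80 in CAR-/- livers. The groups did not overlap in any of the 3, but the WT livers were spread widely, with Slco1a1 from 7.39 to 7.57 in WT females 1, 3 and 6 and from 9.44 to 9.50 in WT females 2, 4 and 5. The differences were -3.80 ± 0.68, -2.59 ± 0.35 and -2.24 ± 0.33 (SE), with adjusted p-values of 9.1e-04, 6.2e-05 and 2.0e-04. Keg1 and Nox4 of this list differed by -1.31 and -0.97, whereas C6, of the terminal complement pathway, was higher by 0.77.

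Of 32 female-biased genes 2 were lower, among them Cyp3a44, none was higher, and the median was 0.03. The count of lower genes was 1 without WT females 1, 4 or 6 or CAR-/- females 1, 4 or 5 and 3 without WT females 2, 3 or 5 or CAR-/- females 2 or 3, each left out alone, and 1 gene was higher without WT female 3 or CAR-/- females 1 or 6. In the growth hormone pathway, whose secretory rhythm sets the sex bias of the liver, Socs2 and Igfbp2 were lower out of 20 genes. Socs2 inhibits signalling of the growth hormone receptor, and the log2 signal of Socs2 had a lowest, median and highest value of 9.32, 10.65 and 11.61 in WT and of 7.14, 7.96 and 9.01 in CAR-/- livers. The groups did not overlap, and Socs2 was 5.86-fold lower in CAR-/- livers (log2 difference -2.55 ± 0.53 SE, adjusted p = 0.0035). Igfbp2 differed by -0.80. Cish, Onecut1 and Bcl6, all known to respond to growth hormone, gave -1.88, -1.80 and 1.30 without passing the test. Smad9, a transducer of BMP signals, was among the largest decreases outside the window at -1.73 (adjusted p = 5.2e-06).

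Steroid and bile acid enzymes changed singly. Akr1c18, which inactivates progesterone, was lower, at -1.53, and with Hsd3b5 it made up the 2 of 31 steroid genes called, or 4 without WT female 3. Cyp7a1, the rate-limiting enzyme of bile acid synthesis, was higher by 0.71 (adjusted p = 0.043) as the only one of 18 bile acid genes, with overlapping groups. The call of Cyp7a1 was lost when any of WT females 2, 4, 5 or 6 or CAR-/- females 2, 3, 5 or 6 was left out. On slide 2 alone its difference was -0.05. Abcg1, which exports cholesterol, was higher by 0.61, the only higher one of 25 transporters. No transporter was higher without WT female 1 or without CAR-/- female 5, and 2 were without CAR-/- female 2.

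Lipid genes nearly all missed the threshold. Of 35 genes of fatty acid and triglyceride synthesis 27 had a positive difference and 1 was called, Srebf1, the lipogenic transcription factor, at 0.79. The list's median was 0.33, and Fasn, Acly, Thrsp and Pnpla3 gave 0.89, 0.75, 0.81 and 1.17. All 30 genes of fatty acid oxidation had a negative difference and none was called, with a median of -0.25 and -1.35, -0.94 and -0.78 for Acot1, Ehhadh and Cyp4a14. Within slides the median of the oxidation list was -0.68 on slide 1, 0.00 on slide 2 and -0.46 on slide 3, and that of the synthesis list 0.80, 0.05 and 0.40. In males the oxidation list had a median of 0.31 and also no called member, and the synthesis list had a median of 0.29 with 6 genes higher. None of 26 cholesterol synthesis genes and none of 25 glucose genes was called, with medians of 0.13 and 0.24. With 1 mouse left out, 2 glucose genes were higher without WT female 2 and 1 without WT female 3 or CAR-/- females 1, 5 or 6, and 1 was lower without CAR-/- females 1 or 6. The synthesis count was 3 without WT female 3 and 2 without WT female 6 or CAR-/- female 2. Ciart, a circadian repressor, was the only one of 19 clock genes called, at 0.86.

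Macrophage genes were higher in CAR-/- females. Kupffer cells, the resident macrophages of liver sinusoids, clear particles and microbes from portal blood through scavenger, complement and Fc receptors. Of 14 measured Kupffer cell markers 10 were higher, none was lower, and the median was 1.04, against -0.02 for all genes and 2.16% higher outside the window. The array cannot tell more cells of a type from more RNA per cell.

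For Marco, a scavenger receptor, the lowest, median and highest log2 signals were 9.92, 10.39 and 10.67 in WT and 11.60, 12.41 and 14.94 in CAR-/- livers. For Cd5l, a secreted macrophage protein, the lowest, median and highest log2 signals were 13.04, 13.65 and 14.03 in WT and 14.49, 14.95 and 15.86 in CAR-/- livers. For Clec4f, a lectin of Kupffer cells, the lowest, median and highest log2 signals were 12.14, 12.54 and 12.65 in WT and 13.09, 13.45 and 13.71 in CAR-/- livers. In all 3 genes every CAR-/- liver lay above every WT liver, and Marco was highest in CAR-/- females 3 and 5, at 14.48 and 14.94. Marco was 5.87-fold higher in CAR-/- livers (log2 difference 2.55 ± 0.51 SE, adjusted p = 0.0025), Cd5l 2.74-fold (adjusted p = 3.5e-04) and Clec4f 2.01-fold (adjusted p = 8.7e-04). Vsig4, Timd4, Slc11a1, Adgre1, Csf1r, Folr2 and Cd68 rose by 1.17, 1.06, 1.17, 1.08, 1.07, 0.99 and 1.01. The markers Cd163, Fcna, Cd207 and Id3 gave 0.43, 0.12, 0.69 and -0.97 and were not called, although 1 marker was lower without CAR-/- female 5 or without WT female 6. The summed signal of the 14 markers ran from 37425 to 60314 in WT and from 69021 to 174352 in CAR-/- females, with 13 or 14 of them well above background on each array.

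All 3 genes of complement C1q, which macrophages secrete, were higher: C1qa by 1.15, C1qb by 1.15 and C1qc by 1.22. All 6 measured genes of the phagocyte NADPH oxidase, which makes superoxide, were higher, with Cybb, its catalytic subunit, at 1.0, Cyba at 0.92 and Rac2 at 1.14. Both lists separated the genotypes gene by gene, with no overlap in any member. Of 24 Fc receptors and their adaptors 18 were higher and none lower, with a median of 0.93, of which 3, Fcgr3, Fcgr4 and Fcer1g, lie in the window. Fcgr1, the high-affinity receptor for IgG, rose by 1.09, the adaptor Tyrobp by 1.12, the kinase Syk by 0.95 and the lectins Clec7a and Clec4n by 1.28 and 1.52. Fcgr2b, the inhibitory receptor, gave -0.38 and was not called.

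Of 11 genes of antigen presentation on MHC class II 8 were higher, with a median of 0.78. The lysosomal enzymes Ifi30, Ctss and Lgmn rose by 1.19, 1.17 and 0.85, the chains H2-Aa and H2-Ab1 by 0.80 and 0.78, the peptide loader H2-DMb1 by 0.89 and the invariant chain Cd74 by 0.72. The count of 8 fell to 5 without WT female 4, without CAR-/- female 1 and without CAR-/- female 5, and to 3 without slide 4 or without both CAR-/- females 1 and 5. On MHC class I, Psmb9 of the immunoproteasome was the only one of 15 called, at 0.66, with a median of 0.23, and none was without WT female 5.

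Of 27 Toll-like receptor and inflammasome genes 9 were higher, with a median of 0.43, and 1 of the 9 is Aim2 of the window. Tlr1, Tlr6 and Tlr13 rose by 1.22, 0.67 and 1.01, Ly86 of the same list by 1.31, and the inflammasome genes Pycard and Casp1 by 0.70 and 0.64. Tlr4, Nlrp3, Il1b and Tnf gave 0.43, 0.02, 0.96 and 0.33 and were not called. Ccl6, Cxcl13 and Ccl4 were the 3 of 21 chemokines called, at 1.45, 1.61 and 1.12. Of 18 chemokine receptors and adhesion molecules 7 were higher, 1 of them in the window, among them the integrins Itgal, Itgb2 and Itga4 at 1.0, 1.26 and 0.85.

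**Figure D3:**
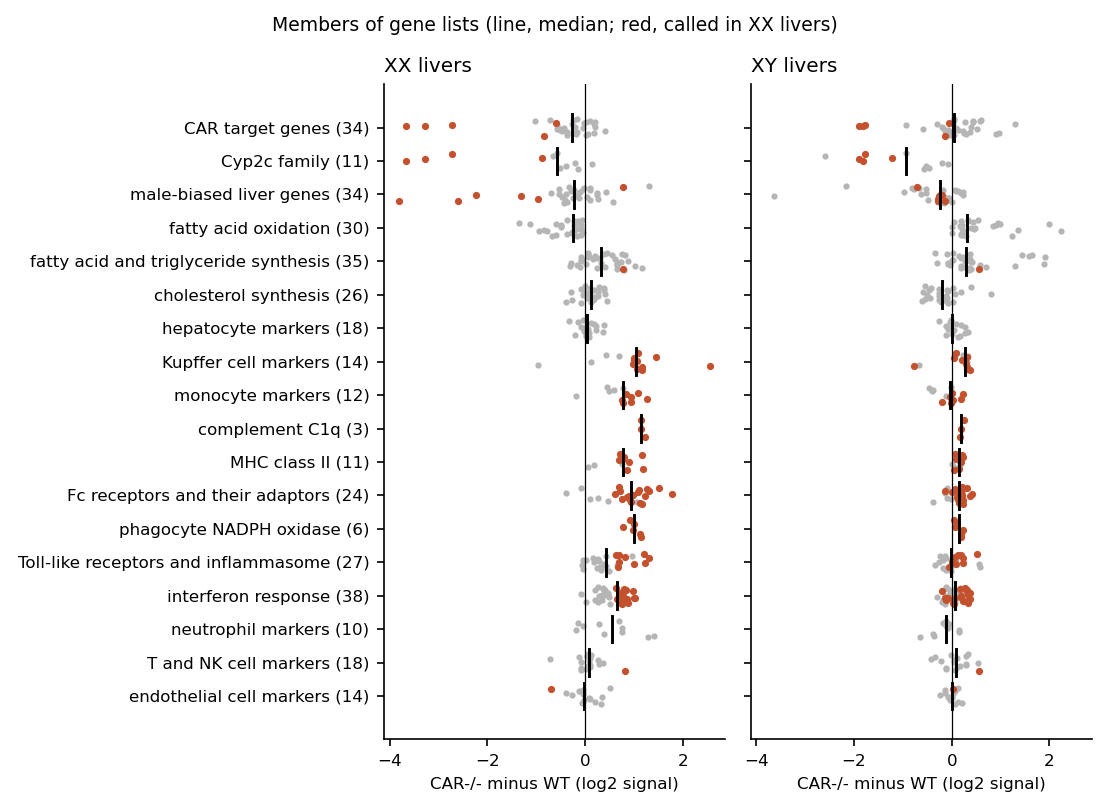
Each point is a gene, placed by its difference between CAR-/- and WT livers in log2 signal, for 18 gene lists with their number of measured genes in parentheses, XX livers on the left and XY livers on the right. Black lines are medians, and red points were called in XX livers. The macrophage, Fc receptor, NADPH oxidase and interferon lists lie to the right of 0 in XX livers and near 0 in XY livers, whereas the Cyp2c list lies to the left in both.

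Genes that share the start of their name were counted in 19 families after their values were seen, beside 2.16% higher among all genes outside the window. Of 10 Ms4a genes 5 were higher, of 22 Clec genes 7 (with 1 lower), of 9 genes of the Lilr and Pir receptors 7, of 6 genes of the Ear and Rnase2 ribonucleases 5, and all 3 Sirp genes. Of the Oas genes 6 of 10, of the Slfn genes 3 of 5, of the Ifit genes 2 of 6 and both Bcl2a1 genes were higher. Of further families, 2 of 8 Cd300 genes, 1 of 4 Siglec genes, 1 of 13 cathepsins and 1 of 6 immunoglobulin segments were higher, 2 of 11 Gbp genes were higher and 1 was lower, 2 of 21 Serpina genes and 1 of 8 Slco genes were lower, and none of 10 Mup genes was called. Ms4a7 and Sirpb1b, both of myeloid cells, rose by 1.55 and 1.6. The Ear genes are near copies, and their probes share runs of up to 23 of 60 bases, so that Ear2 at 1.57 and Ear12 at 1.5 may not be measured independently of each other. Outside these families Mmd2 and Wfdc2 were among the largest rises, at 1.74 and 1.53.

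Markers of other leukocytes were counted in the same way. Of 12 monocyte markers 7 were higher, 1 of them in the window, with a median of 0.77, but Ccr2 and Cx3cr1, which define blood monocytes, gave 0.44 (adjusted p = 0.026, below the fold change minimum) and 0.59 (adjusted p = 0.14) and were not called, and Ly6c2 is not in the table. Ms4a6c, Lyz2 and Plac8 of that list rose by 1.28, 0.95 and 0.76. Their summed signal ran from 4508 to 7282 in WT and from 5409 to 9813 in CAR-/- females and overlapped. None of 10 neutrophil markers was called, although 1 was without CAR-/- female 2, and S100a8 and S100a9 varied between mice in both groups, from 6.23 to 8.65 and from 8.02 to 10.81 in WT and from 6.18 to 10.46 and from 7.88 to 12.45 in CAR-/- livers. Ly6g gave -0.19 without passing the test, and between 6 and 10 of the 10 markers were above background.

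Among lymphocyte markers Zap70 was the only one of 18 T and NK cell genes called, at 0.83, although 1 was lower without WT female 3 or CAR-/- female 1, while Cd3d, Cd3e and Cd3g gave 0.04, -0.13 and 0.10. Cd79b was the only one of 11 B cell genes, at 0.70, with Cd79a at -0.10, and none of 6 plasma cell genes was called, although 1 was without CAR-/- female 4 or WT female 6. Igh-VJ558, an immunoglobulin heavy chain segment outside these lists, rose by 1.59 (adjusted p = 4.5e-04), with 1 of 6 WT arrays and all 6 CAR-/- arrays well above background. Batf3 and Cd83 were called among 10 dendritic cell genes, at 1.02 and 1.0, whereas Flt3 gave 0.26. The call of Cd79b was lost when any of WT females 1, 2, 5 or 6 or CAR-/- females 2, 4, 5 or 6 was left out. The call of Cd83 was lost when any of WT females 4, 5 or 6 or CAR-/- females 3, 5 or 6 was left out. Of 9 genes of lipid-associated macrophages Lgals3 was called, at 1.1, while Trem2 and Spp1 gave 1.05 and -0.12. That count was 3 without CAR-/- female 2 and 2 without CAR-/- females 1, 4 or 6.

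Of 14 endothelial genes Cldn5 was lower, at -0.70, and the sinusoidal genes Stab1 and Stab2 gave -0.03 and 0.21. Of 15 stellate cell genes Col1a1 was higher, by 0.92, with Lrat, which esterifies retinol for storage, at -0.06. The call of Cldn5 was lost when any of WT females 2, 4 or 5 or CAR-/- females 4 or 6 was left out. Without WT female 3, 1 endothelial gene was higher. The call of Col1a1 was lost when any of WT females 1 or 4 or CAR-/- females 1, 2 or 6 was left out. None of 9 cholangiocyte genes was called. Of 7 erythroid genes Ahsp was higher and the globins were not, and none of 5 adipocyte or 4 pancreas genes was, although 1 adipocyte gene was higher without WT females 3 or 5 or CAR-/- females 4 or 6, each left out alone. None of 18 hepatocyte markers was called and their median was 0.04, and all 18 were well above background on every array. Apoa1 and Apob gave -0.32 and -0.14, and Alb sat at the top of the quantile scale at 18.70 in most arrays, the same value in all 6 WT livers. In the acute phase list, made of hepatocyte secretions, 2 of 30 were higher, Apcs of the window and C6, while Saa1, Saa2 and Lcn2 gave 1.59, 1.56 and 1.83 without passing the test. Of 26 proliferation genes Prc1 and Rrm2 were higher and Ect2 lower, at 0.78, 0.64 and -1.18. The count of higher proliferation genes was 0 without WT female 5, 7 without CAR-/- female 6, 3 without WT female 3, and 1 or 2 without any other female. The count of lower ones was 2 without WT female 3.

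**Figure D4:**
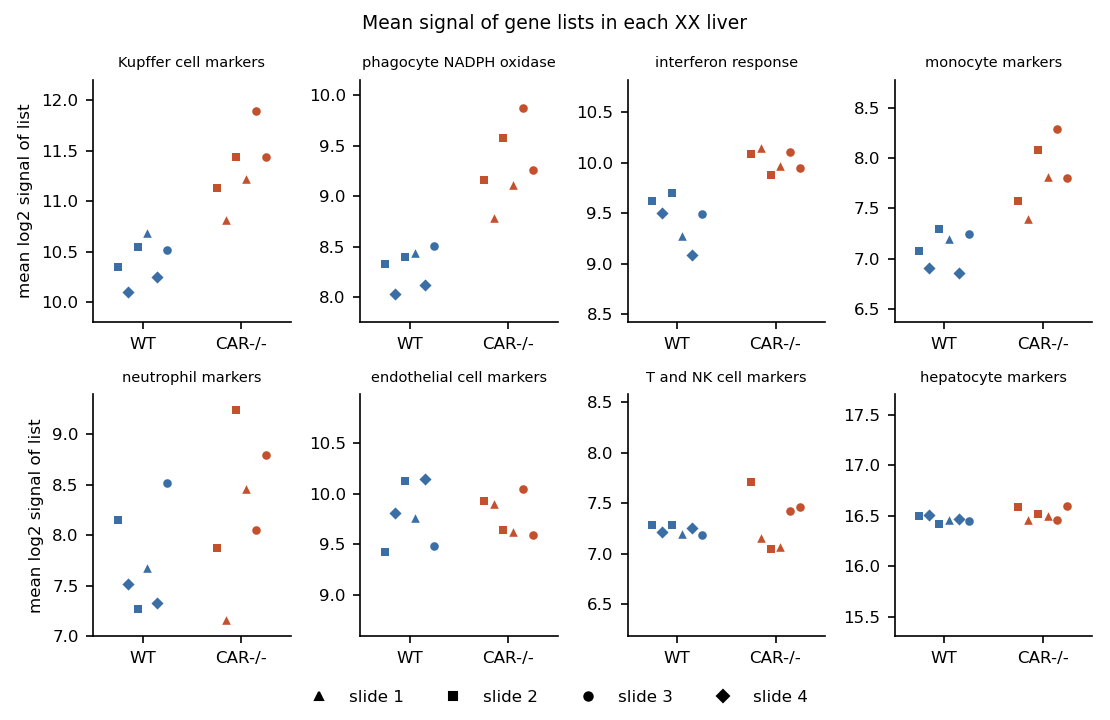
Mean log2 signal of the measured genes of 8 lists in each XX liver, WT blue and CAR-/- red, with the shape of a point giving the slide of its array. Each panel spans the same height of the log2 scale and none starts at 0. The Kupffer cell, NADPH oxidase, interferon and monocyte means of the 6 CAR-/- livers all lie above those of the 6 WT livers, and the other 4 overlap.

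Genes of the interferon response were higher as well. Interferons act through STAT and IRF factors on antiviral genes, among them sensors of foreign RNA, the 2-5A synthetases of the Oas family and GTPases. Of 38 measured genes 19 were higher and none was lower, with a median of 0.65, and 37 had a positive difference. For Oas2, the lowest, median and highest log2 signals were 9.23, 9.84 and 10.23 in WT and 10.49, 10.79 and 11.12 in CAR-/- livers. For Ifi27l2a, the lowest, median and highest log2 signals were 11.25, 11.60 and 12 in WT and 12.46, 12.53 and 12.90 in CAR-/- livers. For Rtp4, the lowest, median and highest log2 signals were 10.89, 11.51 and 12.01 in WT and 12.21, 12.28 and 12.51 in CAR-/- livers. The groups did not overlap in any of the 3, and the CAR-/- livers were closer together than the WT livers. Oas2 was 2.02-fold higher in CAR-/- livers (log2 difference 1.02 ± 0.16 SE, adjusted p = 3.7e-04), Ifi27l2a 1.97-fold (adjusted p = 2.8e-04) and Rtp4 1.79-fold (adjusted p = 2.2e-04).

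Oas1a, Oas3, Oasl1 and Oasl2 rose by 1.01, 0.66, 0.86 and 0.82, the factor Irf7 by 0.75, the ubiquitin-like Isg15 and its protease Usp18 by 0.77 and 0.89, the GTPase Mx1 by 0.73 and Trim30a, a ubiquitin ligase, by 0.73. The factors Stat2 and Irf9 gave 0.03 and 0.42, and the genes Iigp1 and Gbp6, which answer to type II interferon, -0.09 and 0.20, none of them called. These changes were small, and at a fold change above 2 the count was 2 of 38. Across the mice the mean of the list ran from 9.09 to 9.70 in WT and from 9.88 to 10.15 in CAR-/- females. CAR-/- female 2, lowest of its group for the Kupffer markers at a mean of 10.82, was the highest for the interferon list.

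Upstream sequences of 3 of these genes are shown because they hold the paired element GAAANNGAAA, the core of an interferon-stimulated response element. Each is the 250 bases before the transcript start in RefSeq (GRCm38.p6), written along the minus strand, on which all 3 genes lie, with the match in capitals. In Trim30a the capitals are the element read on the opposite strand. In Oas1a the capitals span a pair of overlapping matches.
Trim30a at chr7:104465194-104465443: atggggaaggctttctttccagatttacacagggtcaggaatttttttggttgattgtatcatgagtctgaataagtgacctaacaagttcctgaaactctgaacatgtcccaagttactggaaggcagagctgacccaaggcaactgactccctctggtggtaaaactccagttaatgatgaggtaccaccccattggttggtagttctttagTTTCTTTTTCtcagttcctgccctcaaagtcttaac
Oas3 at chr5:120777660-120777909: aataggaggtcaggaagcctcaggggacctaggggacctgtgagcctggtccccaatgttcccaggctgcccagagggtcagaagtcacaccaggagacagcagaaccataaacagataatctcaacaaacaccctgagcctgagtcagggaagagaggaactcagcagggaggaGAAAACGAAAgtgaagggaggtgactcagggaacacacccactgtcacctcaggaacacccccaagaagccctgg
Oas1a at chr5:120907526-120907775: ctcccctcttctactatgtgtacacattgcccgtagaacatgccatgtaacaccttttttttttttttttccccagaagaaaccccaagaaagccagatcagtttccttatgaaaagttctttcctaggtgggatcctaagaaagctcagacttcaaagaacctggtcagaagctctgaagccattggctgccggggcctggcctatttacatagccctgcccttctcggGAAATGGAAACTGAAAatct
The element was searched on both strands in windows of the 250 bases before transcript starts. Of the 19 called interferon genes 13 have an entry in the table, and 7 of them hold it, in 46.7% of 15 windows against 2.98% of all 32851. The other 4 are Gbp3, Ifit3, Isg15 and Rsad2. The element is also in 2 of the 3 called NADPH oxidase genes with an entry, Cybb and Ncf1, in 1 of 14 called Fc receptor list genes, Fcgr4, and in none of 8 called Kupffer cell markers. A match is a description of these letters and not a measured binding site.

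The female difference was compared with that of males by the interaction of genotype and sex. It was called for 90 genes (0.407%), 13 of them in the window, and 52 of the 90 were called in females. This count ran from 44 without CAR-/- female 5 to 231 without CAR-/- female 2 when 1 female was left out, and was 47, 53, 51 and 50 without WT female 4, WT female 1, CAR-/- female 3 and WT female 5. The interactions of single genes were not refitted without each mouse. In males none of the 14 Kupffer cell markers and none of the 38 interferon genes was called, with medians of 0.28 and 0.06. The interaction was called for 1 Kupffer cell gene, Marco, and for 4 interferon genes, so that for most members the female rise was not shown to differ from the male value. Marco gave 2.55 in females and -0.77 in males (adjusted p of the interaction = 0.043), Oas2 1.02 and -0.14 (0.025), Ifi27l2a 0.98 and -0.21 (0.015) and Fcgr1 1.09 and 0.00 (0.034), with the same adjusted p in parentheses.

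In males 6 of the 11 Cyp2c genes were lower and the median was -0.93, against 4 and -0.58 in females. The interaction was called for 3 of them. Cyp2c54 and Cyp2c50 differed more in females, with -3.66 against -1.81 (adjusted p of the interaction = 0.0094) and -3.28 against -1.90 (0.02). Cyp2c38 differed more in males, with -0.66 in females and -2.59 in males (0.016). Cyp2c37 gave -2.72 and -1.77, with no interaction called (0.13). Nr1i3 itself gave -3.29 and -2.12 (0.016), and its WT mean was 13 in females and 12.04 in males. Slco1a1 and Smad9 gave -2.59 and -1.73 in females and -0.29 and -0.01 in males, with adjusted p-values of the interaction of 0.04 and 0.0068. For Serpina4-ps1, Hsd3b5 and Socs2 the interaction was not called (adjusted p = 0.084, 0.058 and 0.2).

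**Figure D5:**
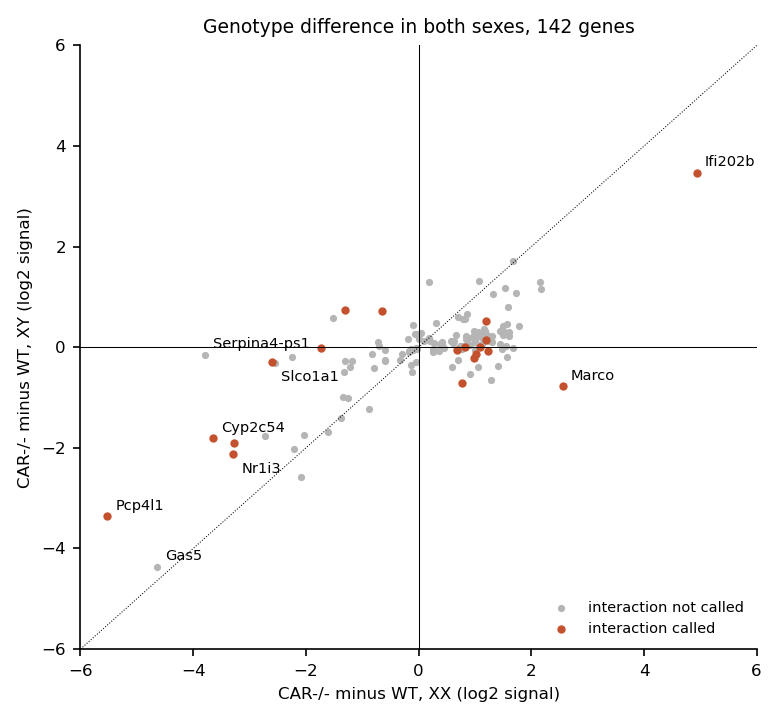
Difference between CAR-/- and WT livers in log2 signal for the 142 genes chosen by rule, XX livers on the horizontal and XY livers on the vertical axis, with a dotted line where both are equal. Red points have a called interaction of genotype and sex. Gas5 and Ifi202b differ in the same direction in both sexes, whereas Marco lies far to the right and slightly below 0.

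The counts were also taken without the arrays that stood apart, an alternative chosen after seeing the data. Leaving out CAR-/- females 1 and 5, which had the most probes above background, gave 394 higher and 98 lower genes. In that fit all 10 Kupffer cell markers, 6 NADPH oxidase and 3 C1q genes were called, while the MHC class II count was 3 and the interferon count 16. Whether the number of probes above background had a part in the other counts was not tested. In a fit of the female arrays alone 446 genes were higher and 92 lower. With the slide as a block 408 genes were higher and 108 lower, and without slide 4 the count of higher genes outside the window was 314. Within slides 1, 2 and 3 the median difference of the Kupffer cell markers was 0.57, 0.85 and 1.16 and that of the interferon genes 0.83, 0.32 and 0.51.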

How the data were processed

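RNA of single livers was hybridized to 1-colour Agilent arrays whose probes carry mm9 positions, and scans were read with Agilent Feature Extraction 10.10.1.1. The authors deposited log2 values of 31343 probes, quantile normalized and filtered by a rule not given in the sources used here. The deposited scanner files hold intensity values, used for flags, probe positions, slides and alternatives. Groups came from the titles.

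The table was fitted with limma 3.58.1 in R 4.3.3 over 4 groups of genotype and sex and all 24 arrays, with Benjamini-Hochberg adjustment over all probes. The most strongly hybridized probe stood for a gene. The main limits were an adjusted p of 0.05 and a fold change of 1.5, without a fold minimum for the interaction. The fit was tested on simulated data.

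Named genes were Nr1i3, Cyp2b10, the 12 largest changes each way outside and the 8 inside the window whose groups did not overlap, up to 4 called members of each of 49 lists by adjusted p, the first 3 cell markers, and the 6 strongest interactions outside the window. Further list members, and Nnt, were named after their values were seen. Some genes are not reported here. The members and lists were chosen with earlier results of these data known. Names of 13806 genes matched RefSeq by symbol and 1525 by a synonym. Alternatives covered normalization, background, filters, slide and replicate blocks, and left-out arrays.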

Additional observations from a re-analysis of the deposited data

Results flagged for a closer look

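A difference between the sexes was tested as the interaction of genotype and sex, and the values here are the female minus the male genotype difference in log2 signal. It was positive in Aim2 (0.68), C6 (1.48), Car14 (0.83), Fcgr1 (1.09), Ifi202b (1.46), Ifi27l2a (1.19), Ifi30 (1.05), Marco (3.33), Oas2 (1.16), Ppbp (1.30) and Tlr6 (0.72). It was negative in Cyp2c50 (-1.37), Cyp2c54 (-1.85), Gm2568 (-1.36), Nr1i3 (-1.17), Pcp4l1 (-2.16), Slco1a1 (-2.30) and Smad9 (-1.72). The probe of Ifi202b was not well above background in WT females, so that its genotype difference is a bound and the size of its difference between the sexes is not known. In Aim2, Nr1i3, Pcp4l1, Cyp2c50 and Cyp2c54 both sexes moved in 1 direction and by different amounts. C6 and Gm2568 were called in both sexes with opposite signs. Their female and male differences were 0.77 and -0.71 in C6 and -0.64 and 0.71 in Gm2568. Other genes named here, among them Marco and Oas2, also had opposite signs but were not called in males.

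In some groups of 6 females 1 mouse lay far from the others. The gap to its nearest neighbour is given as a share of the whole range of its group, and chance alone passes this limit in about 1 of 20 groups, with 284 groups examined. WT female 2 stood apart in Itgb2 (low, 0.66), Lgmn (low, 0.679) and Nceh1 (low, 0.675). WT female 3 stood apart in Ackr1 (high, 0.75), Cd3d (high, 0.715), Cyp2c37 (low, 0.66), Cyp2c50 (low, 0.636) and Cyp2c54 (low, 0.729). WT female 5 stood apart in Rrm2 (low, 0.654) and Tlr6 (low, 0.743). CAR-/- female 2 stood apart in C6 (low, 0.714) and Plac8 (low, 0.666). CAR-/- female 3 stood apart in Ly6g (low, 0.741) and Rrm2 (high, 0.723). CAR-/- female 4 stood apart in Alb (low, 0.758). CAR-/- female 5 stood apart in Batf3 (high, 0.627), Cd79b (high, 0.722) and Fcer1g (high, 0.674).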

How the results depend on the processing

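A filter on dim probes and a window 1.5 or 0.5 times as wide left the counts within 1.5 times, and no call in another setting had the opposite sign. The scanner's median signals, quantile normalized, gave the same 611 calls as the deposited values and so are no separate check. Without a fold change minimum 1012 genes were higher and 371 lower, 35 and 26 of them inside the window and 977 and 345 outside it. At a fold change above 2 the counts were 141 and 50, 10 and 9 inside and 131 and 41 outside, and 55 list genes were called in place of 126. The methods' t-test adjusted gave 264 and 44, 245 and 31 outside and 63 list genes, and unadjusted 151 lower genes outside. Without the slide that holds no CAR-/- array 314 genes were higher outside.

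The interaction, called for 90 genes, also moved. It was 139 with normexp background correction, 51 with the processed signal, 44 with all probes, 46 without that slide and 28 without CAR-/- females 1 and 5. Leaving out 1 female at a time gave 44 to 231, with the extremes without CAR-/- female 5 and without CAR-/- female 2. It gave 413 to 564 higher and 97 to 143 lower genes, 22 to 26 and 13 to 17 inside, 390 to 539 and 82 to 130 outside, 112 to 142 list genes and 25 to 26 window genes in males.

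Same-numbered females were not paired (r of their deviations from -0.12 to 0.27). With a replicate block 500 genes were higher and 115 lower, 68 had an interaction, and 1 of the 142 named genes gained a call. With the slide as a block 13 of these lost theirs, as did 15 without slide 4 and 13 in a fit of the female arrays alone, among them Cyp7a1. Cyp7a1 changed sign within slide 2 (-0.047). The cause of these changes was not tested. Dim probes limit the rest, since a probe near background gives only a bound.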
